A study of Mus musculus with 451 samples.

Results

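The fibrillar collagens are the collagens that form the rope-like fibrils of tendon, and 10 of their genes, Col1a1, Col1a2, Col2a1, Col3a1, Col5a1, Col5a2, Col5a3, Col11a1, Col11a2 and Col27a1, were followed here in single tendon cells. The genes were chosen by name, as a family, but with earlier results of these data known. All 10 had reads, among 48795 gene symbols in the count table, of which 25841 had a read in at least 1 cell. The cells came from the tail tendons of 4-week-old C57BL/6 mice that were either wild type (WT) or Mkx-/-, that is without a working copy of Mohawk homeobox, a transcription factor of the tendon lineage. Tendons were digested with collagenase, and cells were caught one by one on a Fluidigm C1 high-throughput chip and turned into cDNA libraries. Each sample was 1 cell, and there were 227 WT and 224 Mkx-/- cells. No label gives the mouse or the chip from which a cell came, and each genotype was therefore taken as 1 sample. Differences between the genotypes thus have neither replicates nor a test, and mouse and chip cannot be told apart from genotype. Every interval below is a 95% interval, and none covers the spread between mice or chips. Intervals of levels and ratios cover counting error only, and describe reads and not molecules. Intervals of shares of cells treat the cells of a genotype as independent draws, though cells of 1 sample are not replicates.

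A fibrillar collagen molecule is built of 3 chains wound around each other. Type I collagen, the main collagen of tendon, has 2 chains of the Col1a1 product and 1 of the Col1a2 product. Type III collagen, from Col3a1 alone, joins the fibrils of type I in elastic and healing tissue. Types V and XI lie in small amounts inside the fibrils, start their assembly and limit their width, and their chains can mix. Type II, from Col2a1, is the main fibril of cartilage, and type XI is best known as its partner there. Type XXVII, from Col27a1, is known from developing cartilage.

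On the GRCm38.p6 build of the mouse genome the genes lie on 9 chromosomes. Col3a1 (chr1:45311538-45349706) and Col5a2 (chr1:45374331-45503282) are neighbours with 24.6 kb between them, and no other 2 members share a chromosome. Col1a1 lies at chr11:94936224-94953042, Col1a2 at chr6:4505618-4541543, Col5a1 at chr2:27886381-28039510, Col5a3 at chr9:20770050-20815117, Col11a1 at chr3:114030479-114220756, Col11a2 at chr17:34038919-34066684, Col2a1 at chr15:97975602-98004724 and Col27a1 at chr4:63214009-63334991. The values below are sums over a whole gene.

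The RefSeq promoter table for this build held 7 of the 10 genes, with no entry for Col1a1, Col2a1 and Col5a2. The sequences upstream of Col1a2, Col3a1 and Col5a1 are printed because these genes took different courses in the comparison of genotypes: Col1a2 was lower, and Col3a1 and Col5a1 were higher, in tenocyte-like Mkx-/- cells. All 3 lie on the plus strand. The Col1a2 window is chr6:4505368-4505617, the Col3a1 window chr1:45311288-45311537, and both end at the base before the gene. The Col5a1 window is chr2:27886175-27886380 and leaves out the bases nearest the start that lie inside the gene. Capitals mark matches, on either strand and in the 250 bases before the start, to 3 motifs: the CCAAT box, the TATA box written as TATAAA, and the GC box written as GGGCGG.
Col1a2: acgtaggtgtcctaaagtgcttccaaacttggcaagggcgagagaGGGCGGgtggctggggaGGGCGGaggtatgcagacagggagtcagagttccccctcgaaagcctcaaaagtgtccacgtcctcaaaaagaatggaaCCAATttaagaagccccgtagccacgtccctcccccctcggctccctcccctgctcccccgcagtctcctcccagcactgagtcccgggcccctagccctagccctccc
Col3a1: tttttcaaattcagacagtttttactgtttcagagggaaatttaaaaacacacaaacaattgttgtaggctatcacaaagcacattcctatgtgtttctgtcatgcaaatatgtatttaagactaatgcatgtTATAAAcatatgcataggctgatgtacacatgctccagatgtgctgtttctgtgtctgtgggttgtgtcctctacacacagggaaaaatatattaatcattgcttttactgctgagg
Col5a1: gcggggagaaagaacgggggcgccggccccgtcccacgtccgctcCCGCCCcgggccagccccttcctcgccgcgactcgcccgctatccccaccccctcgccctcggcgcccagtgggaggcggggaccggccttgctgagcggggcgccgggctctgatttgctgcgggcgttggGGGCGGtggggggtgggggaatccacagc
Col1a2 held 1 match to the CCAAT box and 2 to the GC box, and Col5a1 held 2 to the GC box. Col3a1 held 1 match to TATAAA, at -117 to -112 from the start. Of 27025 promoters in the table, 34.5% held the CCAAT box, 12.97% the TATA box and 32.9% the GC box in the same 250 bases. The share of G and C in the 250 bases was 62% for Col1a2, 35.2% for Col3a1 and 76.4% for Col5a1. For Col5a1 the 250 bases include 44 that lie inside the gene and are not printed. These matches are descriptions of letters and not of bound sites.

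Cells were put into 2 classes by the mean of log2(CPM + 1) of Tnmd, which encodes the tendon membrane protein tenomodulin, and Fmod, which encodes the fibril-binding proteoglycan fibromodulin. CPM (counts per 1000000) is the number of reads of a gene scaled to that total for a cell or a summed class. A cell with a mean of at least 10 was called tenocyte-like. There were 78 tenocyte-like cells among 227 WT cells (34.4%, exact Clopper-Pearson interval 28.2 to 40.9) and 84 among 224 Mkx-/- cells (37.5%, interval 31.1 to 44.2). Only 4 WT and 3 Mkx-/- cells lay within 0.5 of the cut. The cut used neither the fibrillar collagens nor genotype, but Tnmd and Fmod were themselves higher in tenocyte-like Mkx-/- cells, at 4877 against 3774 CPM and 5727 against 4196 CPM. Among the markers that the cut did not use were Scx, a transcription factor of tendon, and Kera, which encodes the proteoglycan keratocan. Scx stood at 92.95 CPM in tenocyte-like and 1.28 CPM in other WT cells, and Kera at 720.6 and 10.7 CPM. In Mkx-/- cells Scx stood at 67.39 and 6.07 CPM, and Kera at 869.7 and 50.3 CPM. Both markers, and also Tnmd and Fmod, were thus higher in other Mkx-/- than in other WT cells. Whether this adds to the collagen differences among the other cells was not tested. The other cells were higher in the progenitor markers, with a summed level of 22206 against 4903 CPM in WT and 21433 against 5972 CPM in Mkx-/- cells. They are a mixture and were not named.

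The cells held a median of 51788 reads in WT (range 13076 to 335813) and 56121 in Mkx-/- (range 14226 to 294791), and 13630536 and 14145394 reads in all. Tenocyte-like cells were deeper than other cells, with medians of 81693 and 72897 reads in WT and Mkx-/- against 41921 and 46389. The targeted gene, Mkx, stood at 33.8 CPM over all WT and 15.5 CPM over all Mkx-/- cells, and at 68.1 and 28.9 CPM in the tenocyte-like ones. Which part of Mkx was deleted is not given in the sources used here, so the remaining reads do not check the labels further. In tenocyte-like cells the endothelial markers summed to 79.02 CPM in WT and 10.9 in Mkx-/-, the immune markers to 82.2 and 9.83, the mural markers to 93.9 and 81.4, and the Schwann cell markers to 157.6 and 213.5. Wells with reads of at least 3 endothelial, mural or immune markers numbered 2 of the WT and 0 of the Mkx-/- tenocyte-like wells, and without such wells the 10 collagens together differed by -0.53 on the log2 scale in place of -0.50.

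In tenocyte-like cells the fibrillar collagens took a large part of all reads, and this part was smaller in Mkx-/- cells. Together the 10 genes made up 26.6% of all WT and 18.8% of all Mkx-/- tenocyte-like reads, a log2 ratio of -0.50 (interval -0.50 to -0.49). Per cell the summed level ran from 22429 CPM over a median of 266718 to 469036 CPM in WT, and from 31941 over 178838 to 403713 CPM in Mkx-/-. The ranges overlapped nearly whole, but only 10 of 84 Mkx-/- cells (11.9%) lay above the WT median. The remaining cells showed the opposite order: the 10 genes made up 2.79% of WT and 3.40% of Mkx-/- reads, a log2 ratio of 0.28 (interval 0.28 to 0.29). Of 140 Mkx-/- cells, 90 (64.3%) lay above the WT median. These cells were not matched in the Tnmd and Fmod mean. With that mean from 5 to under 7.5, the share was 2.86% in 86 WT and 3.42% in 98 Mkx-/- cells. With a mean under 2.5 it was 2.41% in 22 WT and 2.01% in 4 Mkx-/- cells.

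**Figure D1:**
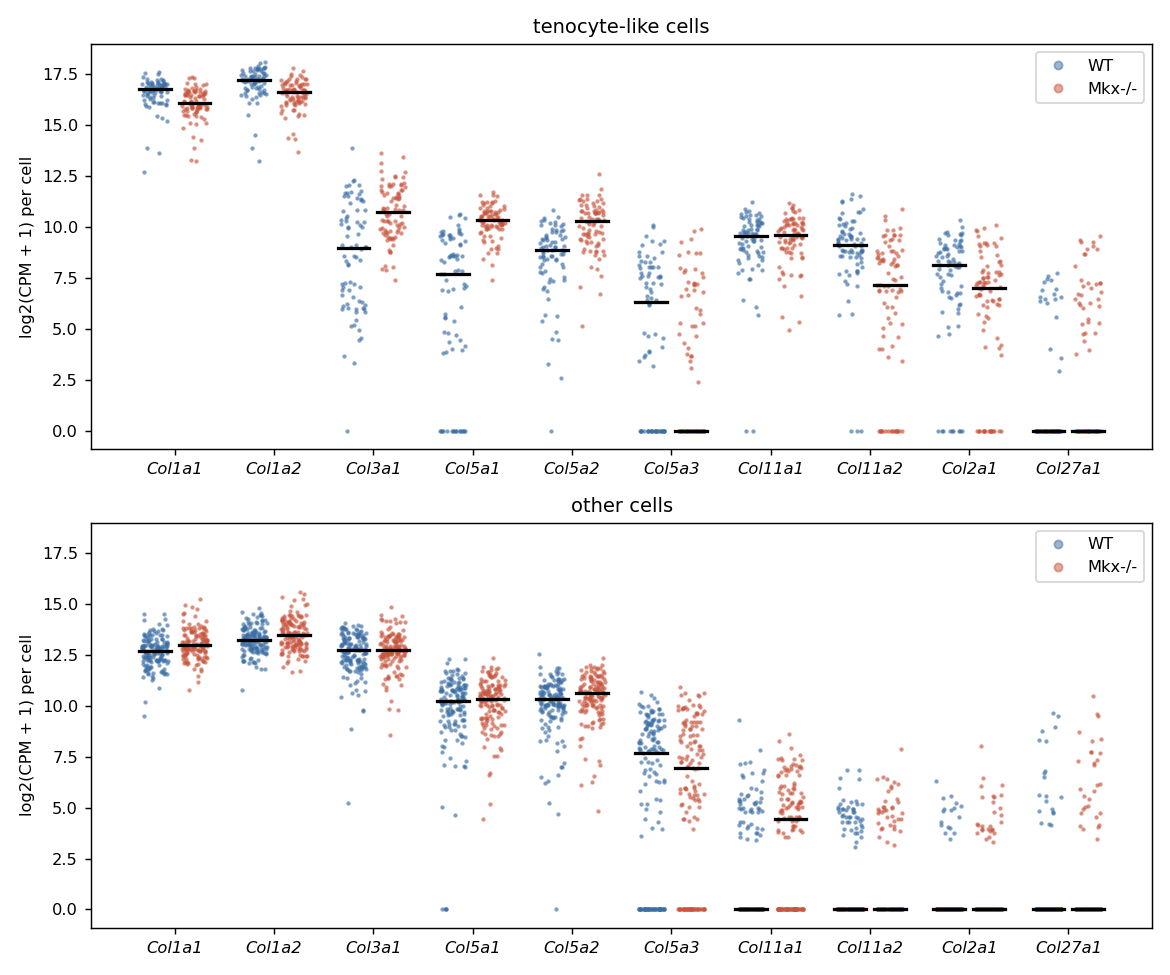
Level of each fibrillar collagen gene in every cell as log2(CPM + 1), for 78 WT and 84 Mkx-/- tenocyte-like cells (upper panel) and for the other cells of both genotypes (lower panel). Points are cells and black bars medians over cells. The Mkx-/- median lies below the WT one for Col1a1, Col1a2, Col5a3, Col11a2 and Col2a1 and above it for Col3a1, Col5a1, Col5a2 and, by little, Col11a1 in the upper panel.

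Of the 10 genes, 4 were at least 1.5-fold higher in Mkx-/- than in WT tenocyte-like cells (Col3a1, Col5a1, Col5a2 and Col27a1), and 2 were at least 1.5-fold lower (Col5a3 and Col11a2). Among all 8368 genes with at least 100 reads in this class, 27.9% were that much higher and 13.2% that much lower, so that neither count of the collagens stands clear of its background. The median log2 ratio was -0.23 over the 10 genes and 0.21 over all genes tested. The scale of the libraries matters for this class: scaling by TMM factors would lower every log2 ratio by 0.16, would change the shares of all genes to 21.3% higher and 17.4% lower, and would take Col1a1, Col1a2 and Col2a1 past the fold too, which gives 5 lower genes. Among the other cells, 2 of the 9 genes with enough reads were at least 1.5-fold higher (Col11a1 and Col27a1) and 0 were lower, against 15.9% and 14.8% of 9332 genes. Over all cells of a genotype, 3 of the 10 genes were higher and 1 lower, against 16% and 13.1% of 10963 genes.

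**Figure D2:**
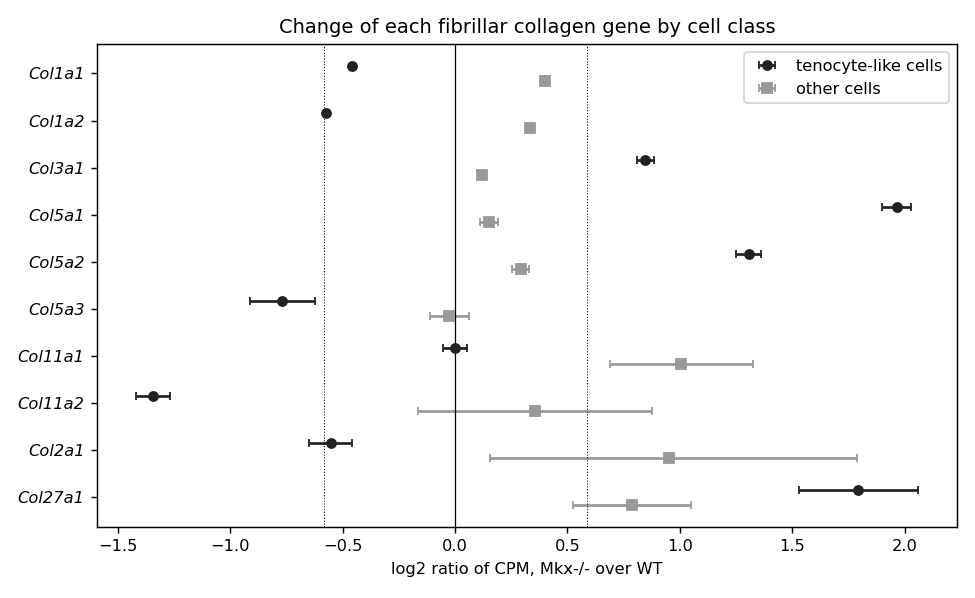
Log2 ratio of the CPM of each gene in Mkx-/- over that in WT cells, in tenocyte-like (black circles) and other cells (grey squares), with 95% intervals that cover counting error only. Dotted lines mark 1.5-fold. Col5a1, Col5a2, Col3a1 and Col27a1 lie to the right and Col11a2 farthest to the left in tenocyte-like cells, and the type I genes change sides between the classes.

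The type I genes were by far the most abundant. Col1a1 had 107594 CPM in WT and 78393 CPM in Mkx-/- tenocyte-like cells, a log2 ratio of -0.46 (interval -0.46 to -0.45). Per cell it ran from 6707 over a median of 111411 to 196600 CPM in WT and from 9656 over 70701 to 169702 CPM in Mkx-/-. Most Mkx-/- cells thus lay in the lower part of the WT range, with 11 of 84 above the WT median. Col1a2, the partner chain, had 153923 CPM in WT and 103405 in Mkx-/-, a log2 ratio of -0.57 (interval -0.58 to -0.57), with 10 of 84 Mkx-/- cells above the WT median. Among the other cells both genes were higher in Mkx-/-, Col1a1 at 9278 against 7033 CPM (log2 ratio 0.40, interval 0.38 to 0.42) and Col1a2 at 13104 against 10408 CPM (0.33, interval 0.32 to 0.35). With the cut at 11 in place of 10 the log2 ratios in the other cells were 0.21 for Col1a1 and 0.13 for Col1a2. The difference between the classes was not tested. Among the 7849 genes with enough reads in both classes, 19.6% also had counting intervals on opposite sides of 0.

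The 2 chains of type I moved closely together. Tenocyte-like cells had 0.699 Col1a1 reads for each Col1a2 read in WT and 0.758 in Mkx-/-, which per kb of transcript are 0.630 and 0.684. The Col1a1 share of type I reads in a cell had a median of 41.7% in WT (range 34.95 to 51.95) and 41.9% in Mkx-/- (range 32.7 to 55.8), so the medians differed by far less than the spread between cells. Col1a2 reads outnumbered Col1a1 reads in 76 of 78 WT and 82 of 84 Mkx-/- tenocyte-like cells. The ratio of reads does not follow the 2 to 1 ratio of the chains in the protein. Over tenocyte-like cells the levels of both genes had a Spearman rho of 0.92 in WT and 0.93 in Mkx-/-. These points share chip, depth and class, and the type I genes are a large part of the total to which every level is scaled.

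Col3a1 went the other way. It had 1309 CPM in WT and 2354 CPM in Mkx-/- tenocyte-like cells, a log2 ratio of 0.85 (interval 0.81 to 0.88). Per cell it ran from 0 over a median of 502 to 15175 CPM in WT and from 170.5 over 1704 to 12617 CPM in Mkx-/-. The ranges overlapped, and 76 of 84 Mkx-/- cells (90.5%) lay above the WT median. The WT sum rested more on a few cells, since 1 cell held 13.1% of it against 4.54% for the leading Mkx-/- cell, and the medians differed by more than the sums. The size of the difference depended on the part of the class: it was 1960 to 3499 CPM (log2 ratio 0.84) with a Tnmd and Fmod mean from 10 to under 12 and 426 to 1750 CPM (2.04) with a mean of 12 or more. Outside the class, where it lay closer to the type I genes, Col3a1 stood at 7280 and 7908 CPM (log2 ratio 0.12, interval 0.10 to 0.14). Against type I, the tenocyte-like cells had 0.501 Col3a1 reads per 100 type I reads in WT and 1.30 in Mkx-/-, a 2.59-fold difference, whereas the other cells had 41.7 and 35.3.

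Within the tenocyte-like class Col3a1 was low where type I was high. Its Spearman rho with Col1a1 was -0.46 in WT and -0.72 in Mkx-/- tenocyte-like cells, but 0.52 and 0.46 in the other cells. Leaving the 10 collagens out of the total that scales a cell gave -0.41 and -0.68, and 0.54 and 0.48. With the mean of Tnmd and Fmod its rho was -0.60 and -0.52 over tenocyte-like cells.

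Of the 10 genes, Col5a1 differed most between genotypes in tenocyte-like cells. Col5a1, whose chain is part of nearly every type V molecule, had 353 CPM in WT and 1378 CPM in Mkx-/- tenocyte-like cells, a log2 ratio of 1.964 (interval 1.90 to 2.03). Per cell it ran from 0 over a median of 204.3 to 1599 CPM in WT and from 166.3 over 1294 to 3371 CPM in Mkx-/-. All but 1 of the 84 Mkx-/- cells lay above the WT median, 28 lay above the highest WT cell, and 4 of 78 WT cells lay above the Mkx-/- median. Tenocyte-like cells with at least 1 Col5a1 read were 79.5% of WT and 100% of Mkx-/- cells, and after each cell was thinned to 13000 reads in 65.4% and 100%.

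Outside the tenocyte-like class Col5a1 had 1358 CPM in WT and 1509 in Mkx-/- (log2 ratio 0.15, interval 0.11 to 0.19). The level in tenocyte-like Mkx-/- cells was thus close to that of the other cells, at 0.913 of it, whereas in WT tenocyte-like cells it was 0.260 of it. The values kept this order within both parts of the tenocyte-like class: with a Tnmd and Fmod mean from 10 to under 12, Col5a1 had 440 CPM (42 WT cells) against 1350 CPM (26 Mkx-/- cells), and with a mean of 12 or more 236 CPM (36 WT cells) against 1392 CPM (58 Mkx-/- cells).

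Col5a2, the other main chain of type V, had 516 CPM in WT and 1276 CPM in Mkx-/- tenocyte-like cells, a log2 ratio of 1.31 (interval 1.25 to 1.36). Its cells ran from 0 over a median of 460 to 1851 CPM in WT and from 34.2 over 1248 to 6258 CPM in Mkx-/-, and 18 Mkx-/- cells lay above the highest WT cell. The other cells had 1441 and 1765 CPM (log2 ratio 0.29, interval 0.25 to 0.33). With Col3a1, its neighbour on chromosome 1, it had a Spearman rho of 0.21 in WT and 0.43 in Mkx-/- tenocyte-like cells. Col3a1 had 0.20 and 0.45 with Col5a3, and 0.53 and 0.06 with Col5a1, which lie on other chromosomes. The read ratio of Col5a1 to Col5a2 was 0.684 in WT and 1.08 in Mkx-/- tenocyte-like cells and 0.942 and 0.855 in the other cells, so the order of the chains differed between genotypes in the tenocyte-like class. Per kb these ratios are 0.539 and 0.851, and 0.743 and 0.674, all below 1.

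Col5a3, the rarest chain of type V, did not share the course of Col5a1 and Col5a2. It had 151.99 CPM in WT and 89.3 CPM in Mkx-/- tenocyte-like cells, a log2 ratio of -0.77 (interval -0.91 to -0.62). Per cell it ran from 0 over a median of 78.8 to 1103 CPM in WT and from 0 over 0 to 955 CPM in Mkx-/-, and it was read in 52 of 78 WT and 41 of 84 Mkx-/- cells. The sign depended on the part of the class: the log2 ratio was 0.36 in cells with a Tnmd and Fmod mean under 12 (143.1 to 183.8 CPM) and -2.06 in cells with a mean of 12 or more (164.1 to 39.3 CPM). For each Col5a1 read there were 0.430 Col5a3 reads in WT and 0.0648 in Mkx-/- tenocyte-like cells, against 0.230 and 0.203 in the other cells.

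**Figure D3:**
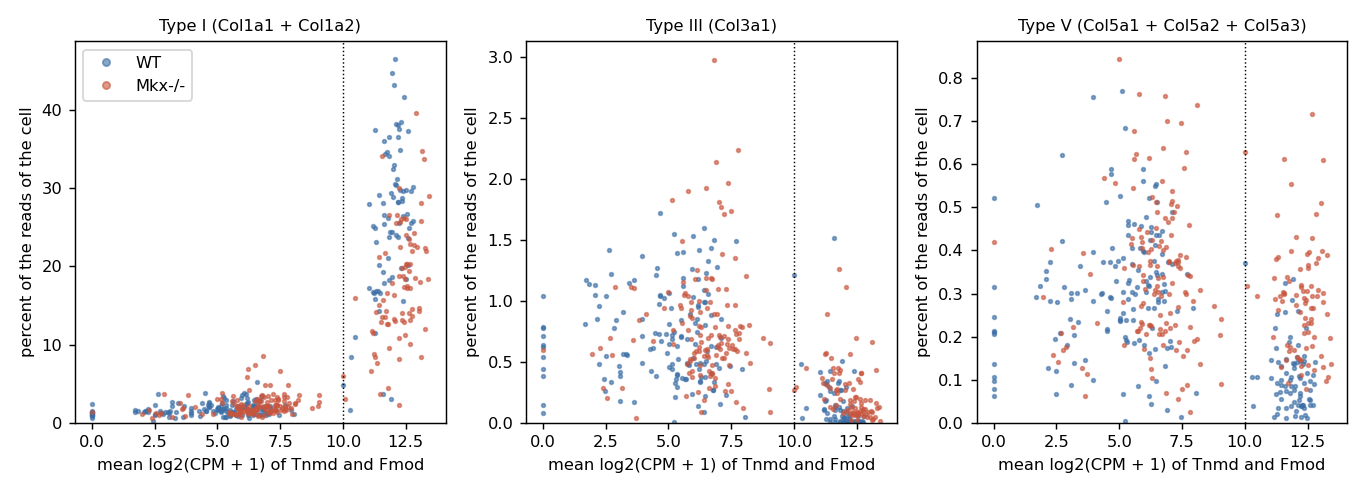
Share of the reads of each cell (percent) taken by type I, type III and type V collagen genes, against the mean log2(CPM + 1) of Tnmd and Fmod, for 227 WT (blue) and 224 Mkx-/- cells (red). The dotted line is the cut at 10. To the right of it type I is high and type III low, and the Mkx-/- cells lie mostly below the WT cells for type I and above them for type V.

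The type XI genes differed from each other. Col11a1 had 804 CPM in WT and 803 CPM in Mkx-/- tenocyte-like cells, a log2 ratio of -0.00 (interval -0.06 to 0.05), and its cells ran from 0 over a median of 759 to 2378 CPM in WT and from 30.3 over 791 to 2348 CPM in Mkx-/-. With TMM scaling its log2 ratio would be -0.16. Col11a2 had 742 CPM in WT and 292 CPM in Mkx-/- tenocyte-like cells, a log2 ratio of -1.34 (interval -1.42 to -1.27). Its cells ran from 0 over a median of 556 to 3181 CPM in WT and from 0 over 141.5 to 1877 CPM in Mkx-/-, and 15 of 84 Mkx-/- cells lay above the WT median. Cells with at least 1 Col11a2 read numbered 75 of 78 in WT and 68 of 84 in Mkx-/-.

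Nearly all reads of both genes came from the tenocyte-like class. Of all Col11a1 reads 97.7% in WT and 95.9% in Mkx-/- came from tenocyte-like cells, and of all Col11a2 reads 98.8% and 96.7%. The other cells had 18.1 CPM of Col11a1 in WT and 36.3 in Mkx-/-, which is 2.01-fold higher (log2 interval 0.69 to 1.32), and was read in 35.6% and 61.4% of cells, or 14.8% and 33.6% after thinning to 13000 reads. This value depended on the class boundary: with the cut at 11 in place of 10 the log2 ratio was 0.21. Col11a2 had 8.26 and 10.6 CPM there, from 58 and 73 reads (log2 ratio 0.35, interval -0.16 to 0.88). Reads at such levels are not separated here from free RNA of tenocyte-like cells, which was not tested.

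The balance of Col11a1 to Col11a2 and of Col11a1 to Col5a1 therefore differed by genotype in tenocyte-like cells. There were 1.08 Col11a1 reads for each Col11a2 read in WT and 2.75 in Mkx-/-, or 0.854 and 2.17 per kb. Col11a1 outnumbered Col11a2 in 47 of 78 WT cells (60.3%, interval 48.5 to 71.2) and 74 of 84 Mkx-/- cells (88.1%, interval 79.2 to 94.1). Col11a1 and Col11a2 levels had a Spearman rho of 0.48 over WT and 0.12 over Mkx-/- tenocyte-like cells. Col11a1 reads stood to Col5a1 reads at 2.28 in WT and 0.583 in Mkx-/-, or 2.495 and 0.639 per kb. Col11a1 was ahead of Col5a1 in 58 of 78 WT cells (74.4%, interval 63.2 to 83.6) and in 19 of 84 Mkx-/- cells (22.6%, interval 14.2 to 33.05).

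**Figure D4:**
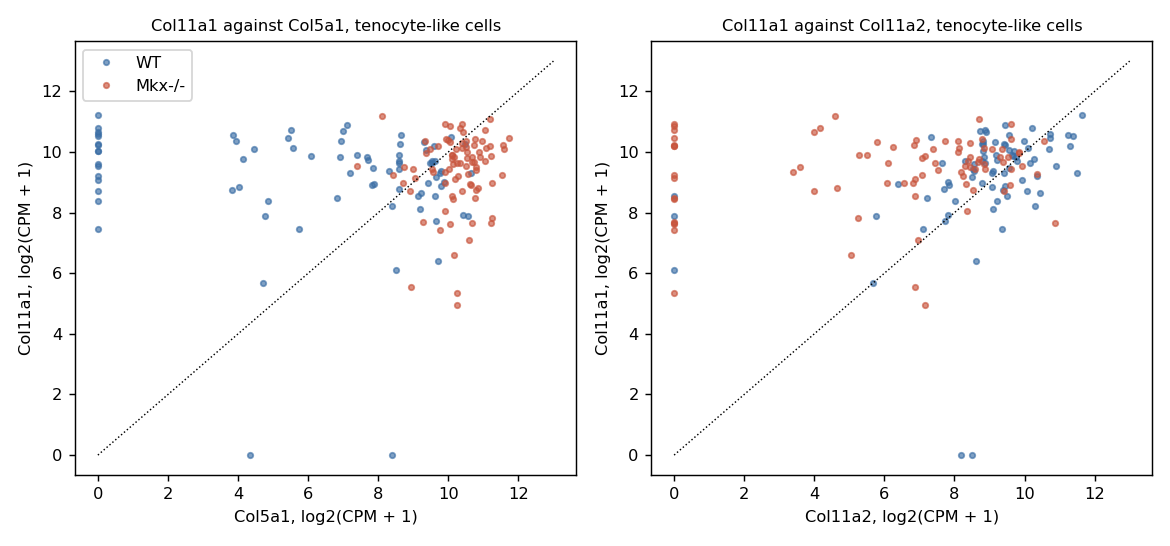
Col11a1 against Col5a1 (left) and against Col11a2 (right) as log2(CPM + 1) in 78 WT (blue) and 84 Mkx-/- (red) tenocyte-like cells, each point 1 cell. The dotted line marks equal levels. WT cells lie mostly above the line in the left panel, at 58 of 78, and Mkx-/- cells mostly below it, with 19 of 84 above.

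Against type I, the tenocyte-like cells had 0.391 type V reads per 100 type I reads in WT and 1.51 in Mkx-/-, a 3.86-fold difference (log2 difference 1.95, interval 1.91 to 1.99). For type XI, taken as Col11a1 and Col11a2 only, the same figures were 0.591 and 0.603, which differed by a log2 value of 0.03 (interval -0.01 to 0.07). Types V and XI together gave 0.982 and 2.11. The other cells had 0.178 and 0.160 type V reads for each type I read. Of the summed fibrillar reads Col1a1 held 40.5% in WT and 41.6% in Mkx-/- tenocyte-like cells, and Col1a2 57.9% and 54.9%. Among the other cells Col1a1 held 25.2% and 27.3%, Col1a2 37.3% and 38.6%, and Col3a1 26.1% and 23.3%.

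Col2a1, the cartilage gene, was read in many tenocyte-like cells. It had 323 CPM in WT and 220 CPM in Mkx-/- tenocyte-like cells, a log2 ratio of -0.55 (interval -0.65 to -0.46), and was read in 69 of 78 and 68 of 84 cells. Per cell it ran from 0 over a median of 282 to 1315 CPM in WT and from 0 over 129.3 to 1084 CPM in Mkx-/-. Of the WT reads 3.84% came from the leading cell, 18.2% from the 5 leading cells and 32.7% from the 10 leading cells, and of the Mkx-/- reads 10.4%, 31.9% and 47.99%. Outside this class it was read in 11.4% of WT cells and in 28 of 140 Mkx-/- cells, from 21 and 40 reads, which is below the 100 reads asked of a gene.

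Other cartilage genes stood at mixed levels beside Col2a1. The 9 chondrocyte markers found in the table (Col2a1 is not among them) summed to 263 CPM in WT and 265 CPM in Mkx-/- tenocyte-like cells, and most of that was Sox9, a factor that tendon precursors also use, at 220 and 141.01 CPM. Matn1 was at 0 in both genotypes, Col9a1 and Col9a2 were at 0 in Mkx-/- cells, and Acan, the main cartilage proteoglycan, stood at 17.4 and 37.8 CPM. Matn3, a cartilage matrix gene, was at 11.2 CPM with reads in 8.97% of cells in WT and at 76.9 CPM with reads in 42.9% of cells in Mkx-/-. Reads of at least 3 of these markers were found in 5 WT and 17 Mkx-/- tenocyte-like cells, and their part in the Col2a1 values was not tested. Against type I, Col2a1 had 0.124 reads per 100 type I reads in WT and 0.121 in Mkx-/-, a log2 difference of -0.03 (interval -0.12 to 0.06). Against Col11a1 it had 0.402 and 0.274 reads for each read.

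Col27a1 was the rarest of the 10 genes in tenocyte-like cells. It had 22.9 CPM in WT and 79.2 CPM in Mkx-/- tenocyte-like cells, a log2 ratio of 1.79 (interval 1.53 to 2.06). It was read in 18 of 78 and 37 of 84 cells, its median was 0 in both, and its highest cell was at 212.3 and 752 CPM. The other cells had 27.8 and 47.8 CPM (log2 ratio 0.79, interval 0.53 to 1.05). There 1 cell held 24.6% of the WT reads and 1 cell 26.9% of the Mkx-/- reads. Col24a1, the remaining fibrillar collagen gene and no member of the list, had 79 WT and 35 Mkx-/- reads, of which 3 and 0 were in tenocyte-like cells.

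By class, the genes fell into 3 kinds. In WT, Col2a1 was 108.2-fold, Col11a2 89.9-fold, Col11a1 44.5-fold, Col1a1 15.3-fold and Col1a2 14.8-fold higher in tenocyte-like than in other cells. In Mkx-/- the same 5 genes were 38.1-, 27.7-, 22.1-, 8.45- and 7.89-fold higher, each less than in WT. The folds of Col2a1 and Col11a2 rested on few reads in the other cells, 21 and 58 in WT and 40 and 73 in Mkx-/-. In WT their log2 intervals were 6.14 to 7.45 and 6.12 to 6.89. Col3a1, Col5a1, Col5a2 and Col5a3 stood lower in tenocyte-like cells of both genotypes, at 0.180, 0.260, 0.358 and 0.486 of the level of the other cells in WT and 0.298, 0.913, 0.723 and 0.291 in Mkx-/-. Col27a1 was at 0.824 in WT and 1.65 in Mkx-/-. At least 1.5-fold higher in tenocyte-like cells were 5 of the 10 genes in WT, against 9.73% of 8917 genes, and 6 in Mkx-/-, against 10.4% of 9040 genes. Since the classes were cut on genes of the same cells, this is a description of the classes.

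The genes most like a member in rank over all cells of a genotype, by the lower of the WT and Mkx-/- Spearman rho among 4710 genes with a read in at least 20% of cells of each genotype, split along the same line. For Col1a1 they were Col1a2 (0.93 in WT and 0.96 in Mkx-/-), Sparc (0.85 and 0.83), Serpinf1, Fmod and Tnmd. For Col11a1 they were Fmod (0.70 and 0.78), Tnmd (0.70 and 0.79), 1500015O10Rik, Kera and Col1a1. For Col3a1 they were Ecm1 (0.68 and 0.59), Mfap5 (0.73 and 0.58), Aspn, Fstl1 and Fbn1, which encode extracellular matrix and secreted proteins. The cells of both classes enter here, so the values mostly follow the class of a cell.

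Genes that act on collagens after or before their translation were read from 6 lists, whose counts in tenocyte-like cells stand against the 27.9% of all genes that were higher and 13.2% that were lower, or 21.3% and 17.4% with TMM scaling. Of 13 procollagen folding genes with at least 100 reads in tenocyte-like cells, 3 were at least 1.5-fold higher in Mkx-/- and 0 lower, with a median log2 ratio of 0.08. The 3 were Plod2, a lysyl hydroxylase (32.1 to 167.6 CPM, log2 ratio 2.38, interval 2.17 to 2.60), P4ha3, a subunit of prolyl hydroxylase (40.4 to 162.9 CPM, 2.01, interval 1.82 to 2.21) and Colgalt1, a collagen galactosyltransferase (log2 ratio 0.71), which would not pass the fold with TMM scaling. The count was near that background. The more abundant folding genes lay closer to 0: Serpinh1, the collagen chaperone, had a log2 ratio of -0.18, P4hb -0.35 and P4ha1 -0.30.

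Of 5 propeptide removal genes, Adamts2, the procollagen N-proteinase of tendon and skin, was lower (993 to 520 CPM, log2 ratio -0.93, interval -0.99 to -0.87) and Adamts3 higher (14.4 to 29.8 CPM, 1.05, interval 0.69 to 1.41). Bmp1, the C-proteinase, had a log2 ratio of 0.38 and Pcolce, its enhancer, -0.05. Of 5 cross-linking genes, Lox, the main lysyl oxidase (1872 to 1133 CPM, log2 ratio -0.72, interval -0.76 to -0.68), and Loxl4 (-1.68) were lower, and Loxl1 (1.01) and Loxl3 (6.36 to 12.7 CPM) were higher. Loxl2 (-0.45) would also pass the fold as lower with TMM scaling. Loxl3 rested on 42 WT and 92 Mkx-/- reads.

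Of 12 genes of the fibril surface, 6 were at least 1.5-fold higher and 0 lower in Mkx-/- tenocyte-like cells, with a median log2 ratio of 0.63. The list and its median include Fmod (log2 ratio 0.45), which the cut used and which was not among the 6. The 6 were the proteoglycans Bgn (246 to 1112 CPM, log2 ratio 2.18, interval 2.10 to 2.26) and Lum (0.82), the thrombospondin family genes Comp (88.6 to 343 CPM, 1.95) and Thbs4 (2118 to 6340 CPM, 1.58), and Dpt (1.74) and Tnxb (1.14). Dcn, the most abundant proteoglycan gene of the list, had a log2 ratio of -0.14, and Sparc -0.37. Of 4 collagen receptor genes with enough reads, Itga11, an integrin subunit, was higher (5.60 to 22.4 CPM, log2 ratio 2.00) and 0 were lower.

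Of 11 genes for factors known to act on collagen genes, 2 were higher and 5 lower, with a median log2 ratio of -0.46. The 5 and the median include Mkx, the gene targeted in Mkx-/- mice, which says nothing about the other factors. Lower were Mkx itself (-1.24), Sox6 (-0.91), Egr1 (-0.86), Nfyb (-0.68) and Sox9 (-0.64), and higher were Sox5 (2.10) and Sp1 (1.09). Scx had a log2 ratio of -0.46 (interval -0.64 to -0.29) and would pass the fold with TMM scaling. Outside the tenocyte-like class 2 of 13 folding genes were higher, 1 of 6 propeptide genes lower, 0 of 3 cross-linking genes past the fold, 4 of 12 fibril surface genes higher, 1 of 4 receptor genes higher, and 1 of 8 factor genes higher and 1 lower, against 15.9% of all genes higher and 14.8% lower. Egr1 (0.68) and Sp1 (-0.90) were on the opposite side there from the tenocyte-like class, and so was Nfyb (0.28), with an interval that spans 0 (-0.05 to 0.62).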

How the data were processed

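Single-cell libraries of 227 WT and 224 Mkx-/- cells were analysed, 1 cell for each sample. The study states a larger number of captured cells, and others were not analysed here. The table deposited by the authors holds raw read counts for each gene symbol in each cell. Per their methods, reads were cleaned with AfterQC, trimmed at the 3′ end, mapped with bowtie2 and counted with featureCounts. The methods name mm9 and the submitters' processing notes mm10. Of the 48795 symbols, 34106 were in the GRCm38.p6 (mm10) RefSeq table and 28993 in GENCODE M1 (mm9). Coordinates here are GRCm38.p6, and the build behind the counts remains unsure. Strand and multiply mapped reads are not given in the sources used here, so reads of overlapping or near-identical genes cannot be separated. Because bowtie2 does not split reads over introns, short collagen exons may lose reads. Protocols of this chip read mostly 3′ ends, so values per kb, which use the longest coding transcript of GENCODE M1, are approximate.

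Counts were summed by genotype and class, without removing cells (0 columns were unused, no cells had identical counts, and mitochondrial symbols had 0 reads). No doublet caller was run, and each deposited well was taken as 1 cell. Levels are CPM. A ratio has an exact conditional binomial interval, a share of cells a Clopper-Pearson interval and a ratio of ratios a Woolf interval, at 95%. A fold needed 100 reads over both genotypes and was counted past 1.5. A gene with few reads can reach that limit mainly through the genotype in which it is higher. A sum of 0 was set to 3 reads. With 1 sample per genotype there was no test. Alternatives were other cuts, cell weights, depth, cell filters and scalings, with TMM from edgeR 4.0.16 and size factors from DESeq2 1.42.0 as scale only (R 4.3.3). The ratio and its interval were checked on simulated Poisson counts, which hold no spread between cells, mice or chips. Python 3.11.15, numpy 2.4.6, scipy 1.17.1 and pandas 2.3.3 were used. The members, lists and classes were chosen with earlier results of these data known. Named genes were the 10 members, for Col1a1, Col3a1 and Col11a1 the 5 most similar genes, the 6 lists and Col24a1, and within lists the text gives genes past 1.5-fold and the abundant ones. Alternatives by score range and without Schwann-marker wells were chosen after seeing the data.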

Additional observations from a re-analysis of the deposited data

Results flagged for a closer look

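Col1a1 was lower in Mkx-/- tenocyte-like cells (log2 ratio -0.46) and higher in the other Mkx-/- cells (0.40). Col1a2 did the same (-0.57 and 0.33). With the cut at 11 the values in the other cells were 0.21 for Col1a1 and 0.13 for Col1a2. Col2a1 was lower in the tenocyte-like class (-0.55) and higher in the other cells (0.95), there on 21 WT and 40 Mkx-/- reads. These 3 genes are given because the counting intervals of their log2 ratios lay on opposite sides of 0 in the 2 classes. Col11a1 (-0.00 and 1.005) and Col11a2 (-1.34 and 0.35) also differed in sign, but with an interval that spans 0 in the first gene's tenocyte-like cells and the second gene's other cells. The difference between the classes was not tested, since each genotype was 1 sample. Of 7849 genes with at least 100 reads in both classes, 1542 (19.6%) also had intervals on opposite sides of 0, a background that does not cover Col2a1 with its few reads in the other cells. In the other cells the ranges of the per-cell Col1a1 level overlapped, with 72.1% of Mkx-/- cells above the WT median.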

How the results depend on the processing

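No paired analysis was possible because the replicate numbers only name cells in accession order and each genotype was 1 sample. All values here are log2 ratios or differences, Mkx-/- over WT. The summed collagens in tenocyte-like cells (-0.50) kept their direction in every setting tried: -0.51 with the cut at 9, -0.54 with the cut at 11, -0.49 with Tnmd alone, -0.52 with the mean over cells or thinned cells, -0.58 with the median over cells or under 5000 detected genes, -0.50 without the leading cells, -0.53 without endothelial, mural or immune wells, -0.64 with the members left out of the total, -0.66 with TMM, -0.63 with DESeq2 factors, and -0.59 for scores from 10 to under 12 and for scores of 12 or more. In the other cells (0.28) they were 0.17 with the cut at 11, 0.27 with Tnmd alone, 0.19 with the median, 0.28 without marker wells, 0.29 with the members left out and 0.27 with DESeq2 factors. Col1a1 to Col1a2 (0.12) was 0.0912 with the mean, 0.0911 with thinned cells, 0.0916 under 5000 genes, 0.0134 with the median, 0.14 without the leading cells, 0.11 without marker wells, and 0.19 and 0.0815 in the lower and upper score range. Col3a1 to type I (1.37) was 1.43 with the cut at 11, 1.32 with Tnmd alone, 1.48 with the mean or thinned cells, 2.43 with the median, 1.496 under 5000 genes, and 1.47 and 2.65 in the score ranges. Types V and XI to type I (1.10) were 1.16 with the mean, 1.20 with the median, 1.21 under 5000 genes, and 1.26 and 1.14 in the score ranges. The 2 members past 1.5-fold lower in tenocyte-like cells became 4 with the mean, the median, thinned cells or under 5000 genes, and 5 with the members left out, TMM or DESeq2 factors. In the other cells (2 higher, 0 lower) the counts were 1 and 1 with the cut at 11 and 0 and 1 with the median. Signs turned for Col5a3 in tenocyte-like cells with scores from 10 to under 12 (0.36), Col2a1 in other cells with the cut at 11 (-0.65), and, with the median over all cells, Col1a1 (0.46) and Col1a2 (0.52). Values near 0 also crossed it, such as Col5a3 in other cells (-0.03, and 0.04 with thinned cells) and Col11a1 in tenocyte-like cells (-0.00, and 0.08 with the mean). Asking 10 reads in place of 100 changed the share of all genes past the fold and lower in tenocyte-like cells to 26.5%, and a 2-fold limit gave 13.8% higher and 6.62% lower. The causes were not tested. With 21 and 40 reads in the other cells, Col2a1 was below the 100 reads asked there.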
